A study of Mus musculus with 4 samples.

Results

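Among 43205 islet cells kept from 4 single-cell libraries, 2409 cells (5.58%) carried a large amount of insulin message together with a large amount of glucagon or somatostatin message. They were chosen by their hormone content: insulin transcripts (Ins1 and Ins2 together) made up at least 5% of the unique molecular identifiers (UMIs, each standing for 1 captured transcript) of the cell, and glucagon (Gcg) or somatostatin (Sst) made up at least 3%. Cells with under 500 detected genes or over 20% mitochondrially encoded UMIs had been left out. Of the 2409 members, 1058 passed the limit for Gcg alone and are called the Gcg kind, 1043 passed it for Sst alone and are called the Sst kind, and 308 passed it for both. The hormone levels of the members follow from this choice and are given as a description.

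The hormone genes lie apart in the genome: in GENCODE vM21 on GRCm38 (mm10), Gcg is on the minus strand of chromosome 2 from 62474530 to 62483650, Sst on the minus strand of chromosome 16 from 23889573 to 23890958, Ins1 on the plus strand of chromosome 19 from 52264297 to 52265476 and Ins2 on the minus strand of chromosome 7 from 142678656 to 142743381. Beta cells make insulin, which lowers blood glucose, alpha cells make glucagon, which raises it, and delta cells make somatostatin, which restrains both. In the adult mouse each of these cell types is known for 1 main hormone and its own transcription factors, among them Mafa, Nkx6-1 and Pdx1 in beta cells, Irx1 and Irx2 in alpha cells and Hhex in delta cells. A barcode that holds transcripts of more than 1 hormone can come from a cell that makes both, from cells captured together in 1 well, or from free RNA of other cells. Depth, doublet scores, free RNA and marker genes are given below for the members, and their origin was not tested.

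All mice were male and aged 8 weeks, and each of the 4 groups was 1 library of islet cells. In the first pair, the Cre-positive mice carried the Pdx1-Cre transgene, which acts throughout the pancreatic epithelium and so not in beta cells alone, and both alleles of Tet2 and of Tet3 were floxed. The Cre-negative mice carried the same floxed alleles without the transgene. Tet2 and Tet3 encode enzymes that oxidise methylated cytosine in DNA. In the second pair, IHG offspring were born to mothers with intrauterine hyperglycemia and control offspring to control mothers; no genotype is named for this pair. The labels describe collagenase isolation, a density gradient, picking by hand, culture, 200 to 300 islets per tube, brief trypsin digestion and capture in microwells with a kit that counts the 3′ ends of transcripts. How many mice stood for a group was not given in the sources used here. With 1 library per group there is no test between groups, and the intervals given below are 95% intervals of counting error only.

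The libraries kept 9587 Cre-positive, 5928 Cre-negative, 11938 IHG offspring and 15752 control offspring cells, at median depths of 6319, 7832, 7266 and 5506 UMIs in that order. Members were set beside 3 classes of the same library. Single-insulin cells had insulin at 5% or more and Gcg and Sst each under 1%. Single-glucagon cells had Gcg at 3% or more, insulin under 5% and Sst under 1%. Single-somatostatin cells had Sst at 3% or more, insulin under 5% and Gcg under 1%. Cells with 3 or more detected endothelial marker genes served as a measure of free hormone RNA, since endothelial cells do not make islet hormones. In those cells, members among them included, the median insulin share was 0.267% of UMIs in the Cre-positive, 0.250% in the Cre-negative, 0.468% in the IHG offspring and 0.724% in the control offspring library, and their median Gcg and Sst shares did not pass 0.165% and 0.0496%. These medians lay far below the limits that members had to reach, but the upper part of these cells passed them in places. Insulin reached 5% of UMIs in 5.38%, 4.98%, 30.5% and 17.8% of these cells in the same order. The 95th percentile of their Gcg share was 1.28%, 0.227%, 8.42% and 0.310%. How much of this was free RNA was not tested. Median depths were 8515 to 18823 UMIs in the Gcg and Sst kinds and 2168 to 2851 UMIs in endothelial-marker cells. Of the 2409 members, 96 had a barcode sequence that another library also held. In the IHG offspring library 139 of the 317 Gcg kind cells and 22 of the 211 Sst kind cells held 3 or more endothelial or macrophage markers. They are called marked cells, and values of the IHG offspring Gcg kind are those of all 317 cells except where the value without marked cells is given.

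The Gcg kind was common in the Cre-positive library and scarce in the Cre-negative one. It made up 369 of 9587 kept Cre-positive cells, or 3.85% (exact 95% binomial interval 3.47 to 4.25), and 15 of 5928 Cre-negative cells, or 0.253% (0.142 to 0.417), a ratio of 15.2 (9.10 to 27.5). In the second pair it held 317 of 11938 IHG offspring cells, or 2.66% (2.37 to 2.96), and 357 of 15752 control offspring cells, or 2.27% (2.04 to 2.51), a ratio of 1.17 (1.00 to 1.37). This direction did not hold under other rules: the ratio was 0.681 without marked cells, 0.884 with Gcg at 5% or more and 0.595 with mitochondrial UMIs at 10% or less. The Cre-negative library stood apart from the other 3, which lay between 2.27% and 3.85%, or at 1.49% in IHG offspring without marked cells.

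The Sst kind followed another order. It made up 1.73% (1.48 to 2.01) of Cre-positive and 2.18% (1.82 to 2.58) of Cre-negative cells, with 166 and 129 cells and a ratio of 0.796 (0.628 to 1.01). It held 1.77% (1.54 to 2.02) of IHG offspring cells (211) and 3.41% (3.13 to 3.70) of control offspring cells (537), a ratio of 0.518 (0.440 to 0.609). Cells past the limit for both second hormones numbered 115 Cre-positive (1.20%) and 0 Cre-negative cells, where 0 of 5928 cells allows a share of up to 0.0506% (3 cells), so that their share was at least 23.7-fold higher in the Cre-positive library; the exact interval shown in the plot reaches 0.0622%. They numbered 39 in the IHG offspring library (0.327%) and 154 in the control offspring library (0.978%), a ratio of 0.334 (0.229 to 0.477).

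**Figure D1:**
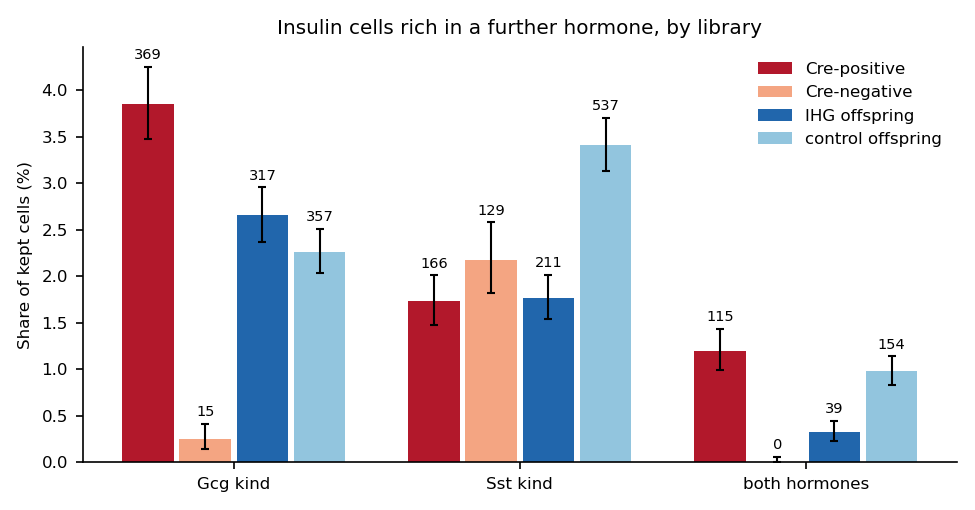
Share of kept cells (%) that were insulin cells rich in glucagon (Gcg kind), in somatostatin (Sst kind) or in both, in each of the 4 libraries, with exact 95% binomial intervals of counting error and the number of cells above each bar. The Gcg kind stands at 3.85% in the Cre-positive and at 0.253% in the Cre-negative library, while the Sst kind is highest, at 3.41%, in the control offspring library.

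Because the libraries differed in how many insulin cells they held, the shares were also taken among cells with insulin at 5% or more. There the Gcg kind made up 10.1% of 3648 Cre-positive and 0.451% of 3326 Cre-negative cells, a ratio of 22.4 (13.4 to 40.5), and 4.53% of 7004 IHG offspring and 2.85% of 12514 control offspring cells, a ratio of 1.59 (1.36 to 1.85). That ratio of 1.59 included marked cells: without them 178 IHG offspring and 345 control offspring cells of the Gcg kind were left. The ratio among insulin cells was not taken without marked cells, where that among kept cells was below 1. The Sst kind made up 4.55% of Cre-positive and 3.88% of Cre-negative insulin cells, a ratio of 1.17 (0.927 to 1.49), and 3.01% of IHG offspring and 4.29% of control offspring insulin cells, a ratio of 0.702 (0.596 to 0.825). The direction of the Sst kind in the first pair therefore differed with the denominator, and both intervals contain 1.

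The members also took part of the glucagon and somatostatin cells of each library. Of all cells with Gcg at 3% or more, whatever their Sst, the insulin-rich ones were 18.01% in the Cre-positive, 2.66% in the Cre-negative, 14.6% in the IHG offspring and 30.6% in the control offspring library. Of all cells with Sst at 3% or more they were 17.9%, 17.6%, 15.5% and 44.6% in the same order. The control offspring library thus had the largest insulin-rich part of both kinds of hormone cell, and the Cre-negative library was low for glucagon alone. The number of Gcg kind over Sst kind members was 2.22 in the Cre-positive, 0.116 in the Cre-negative, 1.502 in the IHG offspring and 0.665 in the control offspring library. The same ratio between single-glucagon and single-somatostatin cells was 2.11, 0.912, 1.56 and 1.37. The mix of all members stood close to that of the single-hormone cells in the Cre-positive and IHG offspring libraries. It stood well below it in the Cre-negative and control offspring libraries. Without marked cells the IHG offspring library held 178 Gcg kind and 189 Sst kind cells. The Gcg kind was then the smaller, where single-glucagon cells outnumbered single-somatostatin cells.

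How often insulin met a second hormone in 1 barcode can be set against the product of the 2 shares. The observed number of barcodes with both, divided by that product, was 0.473 for insulin with glucagon in the Cre-positive library, 0.0474 in the Cre-negative, 0.250 in the IHG offspring and 0.386 in the control offspring library. For insulin with somatostatin it was 0.471, 0.313, 0.265 and 0.561. Insulin with endothelial markers, a pair of cell types that share no lineage, gave 0.141, 0.0887, 0.519 and 0.224 in the same order, and insulin with macrophage markers 0.144, 0.0891, 0.524 and 0.265. The insulin and glucagon pair stood above both unrelated pairs in the Cre-positive library and below both in the IHG offspring library, with intervals apart. In the control offspring library its interval (0.353 to 0.420) was apart from that of the endothelial pair (0.197 to 0.254) and overlapped that of the macrophage pair, which rests on 12 cells (0.137 to 0.463). In the Cre-negative library its interval (0.0265 to 0.0781) overlapped those of the endothelial pair (0.0443 to 0.159, 11 cells) and the macrophage pair (0.0184 to 0.26, 3 cells). Insulin with somatostatin stood above both in all but the IHG offspring library. This order depended on the limit. With Sst at 10% or more, insulin with somatostatin gave 0.108 in the Cre-positive and 0.184 in the control offspring library. These values were below both unrelated pairs. They lay below the interval of the endothelial pair but within that of the macrophage pair (0.103 to 0.196 and 0.137 to 0.463). In the Cre-negative library the value stayed above both unrelated pairs, within their intervals. With Gcg at 10% or more, insulin with glucagon stayed above both in the Cre-positive library. In the control offspring library it then fell within the interval of the endothelial pair. Under the stricter insulin limit reported further on, insulin with glucagon and insulin with somatostatin lay below both unrelated pairs as given here, in every library. The unrelated pairs were not taken at that limit, so the order there was not tested. Glucagon with somatostatin, whose barcodes include the 308 members past both limits, gave 1.46, 0.0716, 0.329 and 1.93.

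In hormone content the members lay between the single-hormone cells. The median Gcg kind cell held 12.5% insulin and 10.4% Gcg in Cre-positive, 10.1% and 5.70% in Cre-negative, 17.4% and 8.27% in the IHG offspring, and 16.3% and 10.2% in the control offspring library. Single-insulin cells held 23.0%, 22.1%, 29.9% and 28.2% insulin in that order, and single-glucagon cells 28.7%, 15.7%, 35.1% and 29.1% Gcg. The median Sst kind cell held 12.4% insulin and 5.86% Sst (Cre-positive), 12.5% and 7.42% (Cre-negative), 18.9% and 8.98% (IHG offspring), and 16.7% and 6.31% (control offspring), where single-somatostatin cells held 15.5%, 23.5%, 26.9% and 17.6% Sst.

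Each hormone was then divided by its median in the single-hormone cells of the same library and the parts were added. The median sum was 0.992 in Cre-positive, 0.898 in Cre-negative, 0.900 in IHG offspring and 0.992 in control offspring cells of the Gcg kind, and 0.988, 0.963, 0.998 and 1.01 in the Sst kind. At a sum of 1 the second hormone stands in for the missing insulin, in proportion to the single-hormone cells. Single cells spread widely around the medians. Quartiles were 0.676 and 1.05 in the IHG offspring Gcg kind and 0.864 and 1.15 in the control offspring Sst kind. The sum uses only the hormones that chose the members and is given as a description. Insulin exceeded the second hormone in 59.6% of Cre-positive, 80% of Cre-negative, 80.4% of IHG offspring and 70.6% of control offspring cells of the Gcg kind, and in 83.7%, 72.9%, 79.1% and 88.1% of the Sst kind. The limits cut through a thin range of cells: over all 4 libraries 57 cells lay just inside the Gcg limit (3 to 3.5% of UMIs) and 53 just outside it (2.5 to 3%), 85 and 95 lay on these sides of the Sst limit, and 119 members had insulin at 5 to 6% where 119 other cells rich in a second hormone had 4 to 5%.

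**Figure D2:**
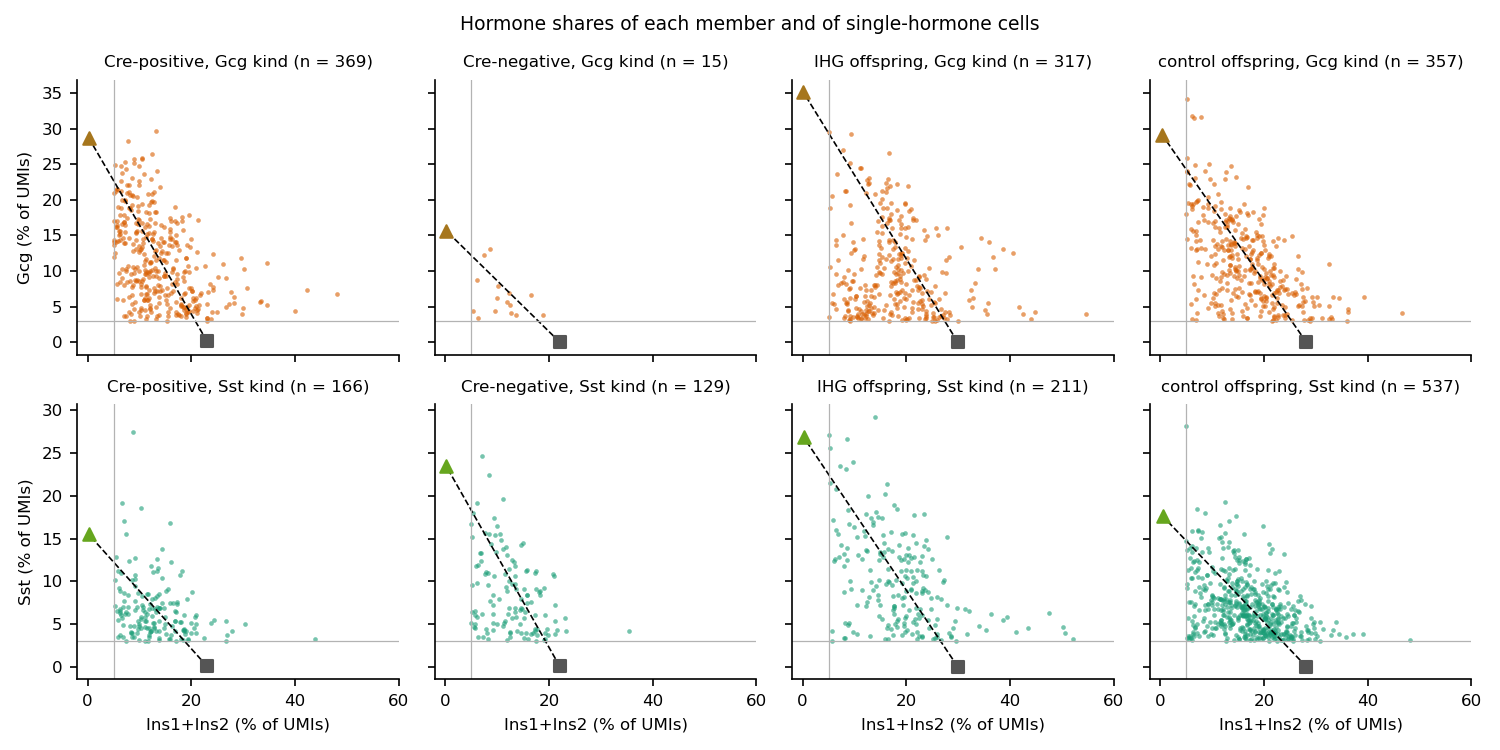
Insulin (Ins1 and Ins2, % of UMIs, x axis) against Gcg (top row) or Sst (bottom row, % of UMIs, y axis) for every member of the Gcg and Sst kinds, 1 panel per library, with grey lines at the limits of 5% and 3%. The square is the median single-insulin cell, the triangle the median single-glucagon or single-somatostatin cell, and the dashed line joins them. The members, chosen by these limits, scatter around that line in every panel, with 15 points in the Cre-negative Gcg panel.

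The members were deep barcodes. The median Gcg kind cell held 18823 UMIs (quartiles 13488 and 25585) in the Cre-positive library and 13119 (10878 and 16628) in the Cre-negative library. It held 9901 (4037 and 16081) in the IHG offspring and 10467 (6872 and 14330) in the control offspring library. Single-insulin cells held 10194.5, 9950, 8966.5 and 5923 UMIs in the same order and single-glucagon cells 6148, 6510, 6355.5 and 4085, so that the Gcg kind had 1.85, 1.32, 1.10 and 1.77 times the UMIs of single-insulin cells, and 1.43 times in IHG offspring without marked cells.

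Adding the medians of the single-insulin and single-glucagon cells gave 16342.5, 16460, 15322 and 10008 UMIs. The median Gcg kind cell reached 1.15 times that sum in the Cre-positive, 0.797 in the Cre-negative, 0.646 in the IHG offspring (0.835 without marked cells) and 1.05 in the control offspring library. For the Sst kind the medians were 15588, 11102, 11779 and 8515 UMIs, which is 1.06, 0.711, 0.864 and 0.970 times the sum of the single-insulin and single-somatostatin medians. Cells past both limits held 25324 (Cre-positive), 8274 (IHG offspring) and 14000.5 UMIs (control offspring), which is 1.22, 0.414 and 1.09 times the sum of all 3 single-hormone medians. Depth near or above the sum was therefore seen in the Cre-positive and control offspring libraries in each kind, and depth below it in the Cre-negative and IHG offspring libraries.

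**Figure D3:**
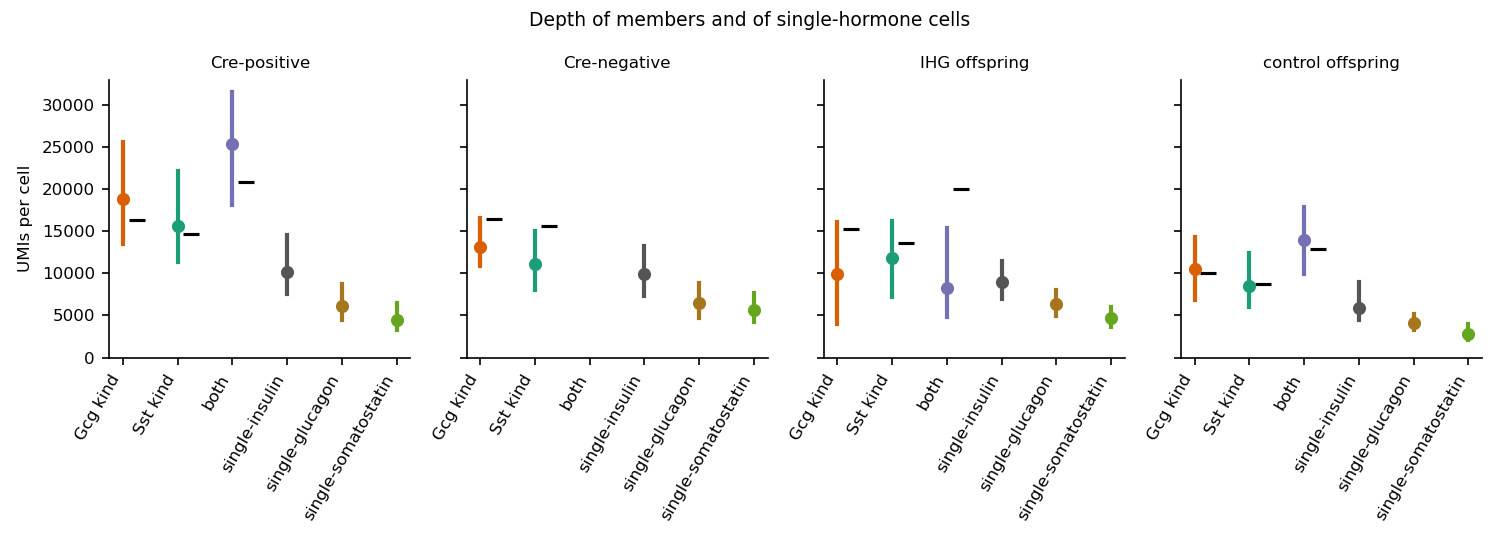
Median UMIs per cell (dot) with quartiles (bar) for members and single-hormone cells in each library; the black dash marks the sum of the single-hormone medians that belong to each kind. The Cre-positive and control offspring members of the Gcg kind lie at 1.15 and 1.05 times that dash, the Cre-negative and IHG offspring members at 0.797 and 0.646 times.

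Single cells varied around these medians. Of the Gcg kind, 85.4% of Cre-positive, 86.7% of Cre-negative, 55.5% of IHG offspring and 81.2% of control offspring cells were deeper than the median single-insulin cell of their library, and 21.1%, 6.67%, 19.2% and 17.9% were deeper than its 95th percentile. Of the Sst kind, 80.7%, 56.6%, 66.4% and 75.4% passed that median. Median genes per cell in the Gcg kind were 4239, 3861, 2707 and 2963, against 3005, 3136, 2596.5 and 2029 in single-insulin cells. When each cell was thinned to 2000 UMIs outside the 4 hormone genes and the mitochondrial genes, the Gcg kind showed 1209, 1301, 1249 and 1240 genes, the Sst kind 1207, 1318.5, 1259 and 1257, and single-insulin cells 1222, 1288, 1248 and 1259. At equal depth the members no longer had more genes than single-insulin cells in the Cre-positive and control offspring libraries, and the gap that was left in the others was small. Too shallow for the thinning were 12 Cre-positive, 0 Cre-negative, 60 IHG offspring and 41 control offspring cells of the Gcg kind and 7, 5, 24 and 45 of the Sst kind.

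Scrublet, a program that scores each barcode by its likeness to sums of barcodes drawn from the same library, placed many members among the highest scores. Among the top 6% of scores of their library were 46.1% (40.9 to 51.3) of Cre-positive, 73.3% (44.9 to 92.2) of Cre-negative, 53.3% (47.7 to 58.9) of IHG offspring and 57.7% (52.4 to 62.9) of control offspring cells of the Gcg kind. The same held for 29.5%, 33.3%, 64.0% and 29.1% of the Sst kind. Of single-insulin cells it held for 5.51%, 6.01%, 4.44% and 4.38%, and of single-glucagon cells for 2.73%, 2.03%, 1.55% and 2.00%. Without marked cells the share in the IHG offspring Gcg kind was 76.4%. Members of each kind were thus several times as frequent among the top scores as single-hormone cells of the same library. The threshold that Scrublet sets by itself gave another picture. It marked 3.25% of Cre-positive, 0 of 15 Cre-negative, 46.1% of IHG offspring and 0 of 357 control offspring cells of the Gcg kind, and 3.01%, 1.55%, 45.5% and 0% of the Sst kind, against 2.18%, 0.193%, 2.98% and 0% of single-insulin cells. In the control offspring library it marked no kept cell, and in the Cre-positive library the intervals of both kinds overlapped that of single-insulin cells. The score reads all variable genes, the hormones that chose the members included, so it is not independent of the choice.

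Deeper members scored higher. Of Gcg kind cells above the single-insulin median depth, 49.2% in the Cre-positive, 71.0% in the IHG offspring and 63.8% in the control offspring library were among the top 6%, against 27.8%, 31.2% and 31.3% of those at or below it. In the Sst kind the shares above and at or below that depth were 34.3% and 9.38% in the Cre-positive, 45.2% and 17.9% in the Cre-negative, 75.7% and 40.8% in the IHG offspring, and 32.3% and 18.9% in the control offspring library.

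The remaining genes were read as counts per 1000000 (CPM), summed over the cells of a class and divided by all UMIs except those of Ins1, Ins2, Gcg, Sst and the mitochondrial genes, so that the chosen hormones do not move the other values. For each gene of a marker list whose levels in the single-hormone classes were at least 2-fold apart, the member level was given a position on the line from the single-insulin level (0) to the single-glucagon or single-somatostatin level (1). A higher position thus means more of an alpha or delta gene, and less of a beta gene.

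Alpha genes were present in the Gcg kind, short of their level in alpha cells. The median position of the alpha list was 0.381 in the Cre-positive, 0.414 in the Cre-negative, 0.306 in the IHG offspring and 0.343 in the control offspring library, over 10, 11, 11 and 10 genes, and 0.378 in IHG offspring without marked cells. Irx1, an alpha cell homeobox factor, stood at 102, 107, 91.1 and 108 CPM in the Gcg kind, against 1.78, 2.17, 1.39 and 0.867 CPM in single-insulin cells and 269, 256, 294 and 304 CPM in single-glucagon cells. In every library it was many times above the single-insulin level and below the single-glucagon level.

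Ttr, the thyroxine carrier transthyretin, held 8708, 12918, 14463 and 10449 CPM in members and 15337, 31217, 36343 and 22328 CPM in single-glucagon cells. The lowest and highest alpha genes were Pou3f4 at 0.286 and Ttr at 0.510 in the Cre-positive library, Slc7a2 at 0.254 and Ttr at 0.362 in the IHG offspring library, and Slc7a2 at 0.257 and the vitamin D binding protein Gc at 0.423 in the control offspring library. Among the 15 Cre-negative cells the lowest was the amino acid transporter Slc38a5 at 0.0637. Of the list, Fap was at 0 UMIs in members, apart from 1 UMI in the control offspring Gcg kind.

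Beta genes were lower in the Gcg kind than in single-insulin cells, and their positions were higher than those of the alpha genes. Their median position was 0.488, 0.663, 0.449 (0.431 without marked cells) and 0.475, against the alpha medians of 0.381, 0.414, 0.306 and 0.343. Mafa, an activator of the insulin genes in mature beta cells, stood at 335, 183, 741 and 1023 CPM in members, against 733, 611, 1368 and 2050 CPM in single-insulin and 15.4, 5.63, 15.7 and 66.4 CPM in single-glucagon cells. Ucn3, a peptide of mature beta cells, stood at 405, 56.9, 775 and 824 CPM, against 760, 243, 1323 and 1470 CPM in single-insulin cells. Nkx6-1, needed for beta cell identity, stood at 617, 550, 689 and 705 CPM, against 1012, 926, 1143 and 1117 CPM. Iapp, the amylin that is stored with insulin, stood at 46612, 31797, 56193 and 50777 CPM, against 75126, 71696, 83201 and 74890 CPM. The glucose transporter Slc2a2 stood at 198, 341, 561 and 558 CPM, against 390, 930, 1080 and 1166 CPM. The single gene of these lists outside the interval from 0 to 1 was the cation channel Trpm5 in the Cre-negative Gcg kind, at 1.02, where 15 cells held 0 UMIs of it.

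For comparison, single-glucagon cells supplied 0.367, 0.414, 0.413 and 0.415 of the sum when the median UMIs outside the hormone and mitochondrial genes of a single-insulin and a single-glucagon cell were added. The alpha positions (0.381, 0.414, 0.306 and 0.343) were near this fraction in the Cre-positive and Cre-negative libraries and below it in the other pair, and all 4 beta positions were above it. For the Sst kind the fraction was 0.333, 0.366, 0.368 and 0.366. The difference between alpha and beta positions was not tested, since genes of 1 library are not replicates.

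**Figure D4:**
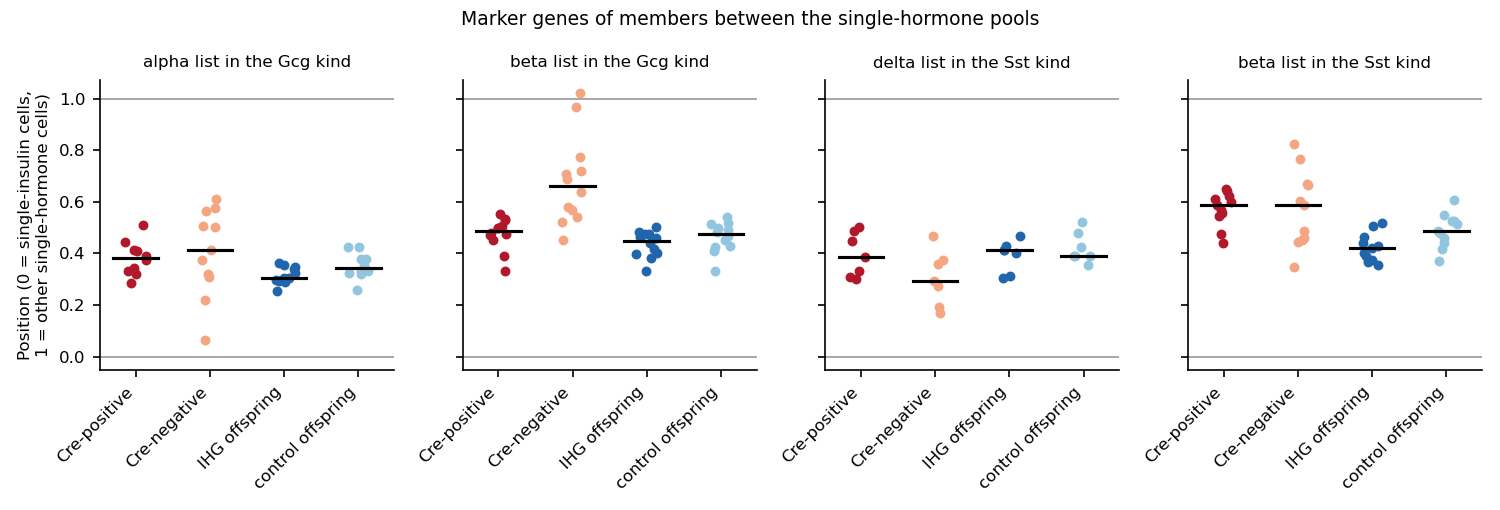
Position of each marker gene (a point) between the single-insulin level (0) and the single-glucagon or single-somatostatin level (1) for the alpha and beta lists in the Gcg kind and the delta and beta lists in the Sst kind, 1 column of points per library, with a line at the median. All points lie between 0 and 1 except Trpm5 at 1.02 in the Cre-negative Gcg kind, and the beta medians lie above the alpha or delta medians in each library.

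The Sst kind showed the same arrangement with delta genes. The median delta position was 0.387, 0.292, 0.411 and 0.391 over 7 of the 9 listed genes, and the median beta position was 0.588, 0.587, 0.420 and 0.486. Hhex, the factor that maintains delta cells, stood at 237, 132, 233 and 240 CPM in the Sst kind, against 3.21, 0.553, 1.27 and 2.21 CPM in single-insulin and 609, 478, 578 and 610 CPM in single-somatostatin cells. The retinol carrier Rbp4 stood at 1336, 1141, 1671 and 1139 CPM in members and 2676, 2178, 3825 and 2358 CPM in single-somatostatin cells. The ghrelin receptor Ghsr stood at 14.1, 7.16, 13.5 and 18.9 CPM, against 42.1, 42.4, 42.8 and 48.6 CPM. Mafa stood at 271, 115, 772 and 958 CPM in the Sst kind, against 13.2, 7.07, 19.5 and 61.3 CPM in single-somatostatin cells. The Cre-negative Sst kind was thus the lowest in Hhex and Ghsr of the 4, and Cckbr was at 0 UMIs in all members.

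The second lineage was largely the one that matched the second hormone. Hhex in the Gcg kind reached 34.2 CPM in the Cre-positive, 0 in the Cre-negative, 10.1 in the IHG offspring (2.29 without marked cells) and 28.5 CPM in the control offspring library, and Irx1 in the Sst kind reached 5.83, 4.48, 4.50 and 4.08 CPM. In the Cre-positive and control offspring libraries that Hhex was above single-insulin (3.21 and 2.21 CPM) and single-glucagon cells (7.57 and 4.01 CPM). The choice held each kind under 3% of the other second hormone, so the match is not independent of it. Cells past both limits held both factors, with Irx1 at 93.3, 67.5 and 94.6 CPM and Hhex at 217, 84.3 and 214 CPM in the Cre-positive, IHG offspring and control offspring libraries, and Mafa at 200, 624 and 660 CPM.

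Opposing factors met in the same barcodes. After thinning to 2000 UMIs, at least 1 UMI of a transcription factor of the alpha list and of a beta factor (Mafa, Nkx6-1 or Pdx1) was found in 45.7% (40.4 to 51.0) of Cre-positive, 66.7% (38.4 to 88.2) of Cre-negative, 57.2% (50.9 to 63.3) of IHG offspring and 61.1% (55.5 to 66.5) of control offspring cells of the Gcg kind. In single-insulin cells thinned alike the shares were 6.95%, 9.13%, 7.82% and 5.42%, in single-glucagon cells 22.1%, 15.4%, 18.6% and 29.2%, and in endothelial-marker cells with insulin under 5%, which should lack both, 1.99%, 1.77%, 3.20% and 1.98%. Without marked cells the IHG offspring share was 58.7% (50.5 to 66.5). Without thinning the Gcg kind gave 94.0%, 100%, 74.8% and 87.4%.

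Hhex together with a beta factor was found in 32.1% (24.9 to 39.9), 13.7% (8.19 to 21.04), 34.2% (27.5 to 41.5) and 32.9% (28.8 to 37.3) of thinned Sst kind cells, against 0.55%, 0.10%, 0.15% and 0.28% of single-insulin and 17.6%, 15.97%, 15.88% and 25.1% of single-somatostatin cells. The Cre-negative Sst kind lay below its own single-somatostatin cells on this measure, but its interval contained their share. The Sst kind of the other 3 libraries lay above theirs, with intervals that did not contain it. Without thinning the Sst kind gave 78.3%, 42.6%, 61.1% and 64.8%.

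Alpha levels followed the glucagon share. In bands of 3 to 5%, 5 to 10%, 10 to 20% and 20% or more Gcg, the median alpha position was 0.149, 0.293, 0.475 and 0.521 in Cre-positive members, 0.131, 0.236, 0.406 and 0.525 in the IHG offspring library, and 0.153, 0.269, 0.433 and 0.688 in the control offspring library. The beta genes moved in step, with positions of 0.343, 0.405, 0.554 and 0.717 in the Cre-positive, 0.375, 0.420, 0.492 and 0.499 in the IHG offspring, and 0.289, 0.389, 0.565 and 0.747 in the control offspring library. In bands of 3 to 5%, 5 to 10% and 10 to 20% Sst the delta position was 0.323, 0.433 and 0.460 in the Cre-positive, 0.234, 0.294 and 0.317 in the Cre-negative, 0.313, 0.373 and 0.440 in the IHG offspring, and 0.307, 0.422 and 0.618 in the control offspring library. Cells with more of the second hormone thus held more of the genes of its lineage in every library for which positions were available. The beta positions of the Sst kind over these bands were 0.580, 0.562 and 0.680 in the Cre-positive library, where they did not follow the bands, and 0.456, 0.585 and 0.676 in the Cre-negative, 0.297, 0.434 and 0.454 in the IHG offspring, and 0.381, 0.505 and 0.615 in the control offspring library. In the IHG offspring Gcg kind depth moved with the bands, at medians of 4918, 7935, 13554 and 14530.5 UMIs, and its part in these positions was not tested. Without marked cells the alpha positions of that kind were 0.180, 0.298, 0.420 and 0.513 and the beta positions 0.286, 0.349, 0.457 and 0.487, in the same order.

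Hormone processing genes that were 2-fold apart between the classes lay between them, 7, 6, 5 and 5 of the 10 listed in the Gcg kind and 5, 1, 5 and 4 in the Sst kind, with none outside. Pcsk1, the convertase that beta cells use to cut proinsulin, stood at 120, 221, 197 and 238 CPM in the Gcg kind, against 212, 380, 357 and 379 CPM in single-insulin and 6.91, 5.63, 3.93 and 12.8 CPM in single-glucagon cells. The convertase Pcsk2, which cuts proglucagon in alpha cells, stood at 4041, 3825, 4680 and 4491 CPM in the Gcg kind. Of the progenitor and dedifferentiation genes 2-fold apart in the Sst kind, 6 of 6 lay between in the Cre-positive, IHG offspring and control offspring libraries and 4 of 6 in the Cre-negative library. There Dlk1 held 432 CPM in members, above both single-insulin (286 CPM) and single-somatostatin cells (43.9 CPM), and Fabp5 also lay outside. Neurog3, the factor of endocrine progenitors, stood at 21.9, 43.9, 105 and 76.3 CPM in the Sst kind, against 5.33, 11.2, 13.0 and 6.70 CPM in single-insulin cells and a higher 55.6, 67.3, 218 and 139 CPM in single-somatostatin cells. Pax4, an early beta and delta lineage factor, was at 0 UMIs in all members.

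Of the 7 listed receptors 5, 4, 4 and 4 were 2-fold apart between the classes of the Gcg kind, and all lay between except the glucagon receptor Gcgr in the Cre-negative library. In the Sst kind 4 of 4 lay between in each library. Glp1r, the incretin receptor of beta cells, stood at 214, 424, 497 and 545 CPM in the Gcg kind, against 420, 874, 902 and 1013 CPM in single-insulin and 11.0, 5.27, 10.9 and 42.7 CPM in single-glucagon cells. Sstr2, through which somatostatin acts on alpha cells in mice, stood at 29.0, 31.6, 20.1 and 26.1 CPM, against 0.380, 1.58, 0.194 and 0.276 CPM in single-insulin and 88.0, 91.4, 59.9 and 67.5 CPM in single-glucagon cells. The gap junction gene Gjd2, which couples beta cells, stood at 342, 424, 320 and 374 CPM, against 532, 629, 510 and 558 CPM in single-insulin and 71.5, 79.8, 71.8 and 94.1 CPM in single-glucagon cells.

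Across the transcriptome few genes set the members apart from both single-hormone classes. Counted were genes at least 1.5-fold above, or below, both classes of the same library. In the Gcg kind 5 of 7767 Cre-positive genes (0.0644%) lay above both and 29 (0.373%) below both, and in the control offspring library 9 of 8047 (0.112%) above and 29 (0.36%) below. In the Sst kind 10 of 7802 Cre-positive genes lay above (0.128%) and 42 below (0.538%), 67 of 8302 Cre-negative genes above (0.807%) and 59 below (0.711%), 19 of 8191 IHG offspring genes above (0.232%) and 26 below (0.317%), and 0 of 8143 control offspring genes above (0%) and 28 below (0.344%). The 15 Cre-negative cells of the Gcg kind gave 605 genes above (7.48%) and 975 below (12.1%), of which 87 and 58 had an interval apart from both classes.

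The genes below both were in part those of vessels. In the Cre-positive Gcg kind the endothelial receptor Flt1 held 9.7 CPM in members, 47.6 CPM in single-insulin and 67.8 CPM in single-glucagon cells, and the capillary gene Plvap 15.1, 57.2 and 66.4 CPM. The genes above both in that library were Hhex, Dlk1, Shisal2b, Cd24a and Ramp1, of which Hhex and Shisal2b belong to the delta list. In the control offspring Gcg kind the haemoglobin gene Hbb-bs was above both with 109 UMIs, of which 105 came from 1 cell.

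Removing members with 3 or more endothelial or macrophage markers and taking only genes at least 2-fold apart between the single-hormone classes, 1141 of 1158 genes of the Cre-positive Gcg kind lay between the classes (98.5%), and 1046 of 1071 in its Sst kind (97.7%). In the Cre-negative library 75.1% and 90.9% lay between, in the IHG offspring library 97.4% and 96.8%, and in the control offspring library 96.8% and 96.0%.

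The IHG offspring Gcg kind carried vessel transcripts. Of its 317 cells 42.9% (37.4 to 48.6) held 3 or more of 8 endothelial markers, against 2.44% of Cre-positive, 0 of 15 Cre-negative cells and 3.08% of those of control offspring. In the Sst kind the shares were 1.20%, 0.775%, 9.48% and 2.05% in the order Cre-positive, Cre-negative, IHG offspring and control offspring, and 59.0% of the 39 IHG offspring cells past both limits held them. With macrophage markers included, 139 IHG offspring cells of the Gcg kind were marked. Their median was 6236 UMIs, 12.3% mitochondrial, 15.7% insulin, 5.80% Gcg and 1.17% Sst, against 12795.5 UMIs, 7.56%, 17.99%, 12.01% and 0.0272% in the other 178 cells. The alpha list summed to 9676 CPM in the marked and 19022.5 CPM in the other cells, and the endothelial list to 3645 and 73.9 CPM.

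The marked cells were thus shallower, richer in mitochondrial transcripts and held less of the alpha genes than the rest. In the whole Gcg kind of that library 164 of 8166 genes lay above both single-hormone classes (2.01%) and 13 below (0.159%), among them Vim at 39.8 CPM in members against 3.4 and 2.7 CPM in single-insulin and single-glucagon cells, and Plvap at 370 against 45.8 and 27.5 CPM. Without the marked cells 8 genes lay above and 48 below. The same library had the highest pairing of insulin with endothelial markers (0.519), of glucagon with endothelial markers (0.807) and of endothelial with macrophage markers (1.99). The part of the marked cells in IHG offspring values that are given for all cells alone was not tested.

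The first pair asks how these cells differ between islets with and without Pdx1-Cre on floxed Tet2 and Tet3. Tet2 held 37.8 CPM in Cre-positive and 63.2 CPM in Cre-negative cells of the Gcg kind, a ratio of 0.598 (0.318 to 1.27), and 47.1 and 63.6 CPM in the Sst kind (0.741, 0.540 to 1.02). Tet3 held 25.5 and 37.9 CPM in the Gcg kind (0.673) and 34.0 and 37.6 CPM in the Sst kind (0.904). All 4 ratios were below 1 with intervals that contained 1 for Tet2, and 3′ counts outside the deleted exons do not check the deletion.

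A gene was counted as higher or lower where its CPM differed by 1.5-fold or more. Of 7958 genes in the Sst kind 643 were higher (8.08%) and 2240 lower (28.1%) in the Cre-positive library, of which 565 and 2038 had an interval apart from 1. Of 7849 genes in the Gcg kind 1272 were higher (16.2%) and 2254 lower (28.7%), of which 372 and 902 had an interval apart from 1. The Cre-negative side of the Gcg kind held 15 cells, so most of its genes past 1.5-fold had an interval that contained 1, and its list counts given below carry the same limit. The median gene moved by −0.20 (Gcg kind) and −0.30 (Sst kind) on the log2 scale. With the libraries scaled so that the median is 0, 1700 genes were higher and 1547 lower in the Gcg kind, and 1234 and 1044 in the Sst kind. With all UMIs as the denominator the Gcg kind gave 742 and 2592 of 6680 genes. The split between higher and lower therefore changed with the scaling, and the lists of this pair are also given relative to the median gene.

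The list of immediate early and heat shock genes lay mostly on one side in the first pair. Of its 16 measured genes in the Sst kind 13 were higher in the Cre-positive library and 0 lower, with a median log2 ratio of 1.83, and 14 were higher relative to the median gene. The Gcg kind had 9 of 15 higher and 3 lower (median 0.99), or 10 and 1 relative to the median gene. Bag3, which works with the heat shock chaperones, held 932 CPM in Cre-positive and 31.3 CPM in Cre-negative cells of the Sst kind, a ratio of 29.8 (21.3 to 42.9). The Gcg kind held 571 and 6.32 CPM of Bag3, a ratio of 90.4 (16.2 to 3570) that rests on 1 Cre-negative UMI. Bag3 was found in 93.4% of the 166 Cre-positive and 21.7% of the 129 Cre-negative cells of the Sst kind.

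The chaperones Hsph1 and Dnaja1 moved alike, Hsph1 with 1391 and 130 CPM in the Sst kind and 1353 and 126 CPM in the Gcg kind, a ratio of 10.7 in both. Dnaja1 held 2530 and 438 CPM in the Sst kind (5.78) and 2265 and 386 CPM in the Gcg kind (5.87). Atf3, a stress-induced factor, held 259 and 20.6 CPM in the Sst kind (12.6) and 371 and 133 CPM in the Gcg kind (2.79). Fos differed in direction between the kinds, with 3469 and 2236 CPM in the Sst kind (1.55) and 1994 and 3402 CPM in the Gcg kind (0.586). The same list had medians of 1.27 in single-insulin, 0.56 in single-glucagon and 1.53 in single-somatostatin cells, so the direction of the median was shared with them. Of 15 measured genes 12 were higher and 0 lower in single-insulin cells. Single-glucagon cells were split, with 7 of 15 higher and 5 lower.

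The unfolded protein response list, whose genes relieve stress in the endoplasmic reticulum, had 9 of 13 higher and 0 lower in the Gcg kind (median 0.85) and 7 of 13 and 0 in the Sst kind (0.61), or 10 and 11 relative to the median gene. The direction was shared with single-insulin cells (10 of 13 higher and 0 lower, 1.07) and single-glucagon cells (7 of 12 and 0, 0.85). Herpud1, which serves the removal of misfolded proteins, held 1834 CPM in Cre-positive and 392 CPM in Cre-negative cells of the Gcg kind (4.68, 3.65 to 6.11) and 1687 and 567 CPM in the Sst kind (2.98, 2.73 to 3.25). Hspa5, the main chaperone of that compartment, held 3691 and 1802 CPM in the Gcg kind (2.05) and 3385 and 2219 CPM in the Sst kind (1.53). The metallothioneins Mt1 and Mt2, which bind zinc, were among the most separated genes of the Gcg kind, at 4504 and 740 CPM (6.09) and 2081 and 297 CPM (7.003). Atf5, a factor of the stress response, held 316 and 19.0 CPM there, on 3 Cre-negative UMIs (16.7, 5.70 to 81.0), and Slc5a3, the inositol carrier, was at least 5.42-fold higher, with 103 CPM and 0.

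Ppy, the pancreatic polypeptide hormone, was the largest difference of the Gcg kind by its interval, at 6272 CPM in Cre-positive and 56.9 CPM in Cre-negative cells (110, 58.1 to 241). Its 9 Cre-negative UMIs came from 2 cells, 8 of them from 1. Ppy in the Sst kind held 20985 and 967 CPM (21.7, 20.4 to 23.1). It was also higher in Cre-positive single-insulin (11.1), single-glucagon (5.95) and single-somatostatin cells (11.6). Cells with Ppy at 1% of UMIs or more were 7.59% of the Cre-positive and 0% of the Cre-negative Gcg kind and 24.1% and 2.33% of the Sst kind, against 2.77% and 0.289% of single-insulin cells. The related peptide gene Pyy held 15179 and 6354 CPM in the Gcg kind (2.39).

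Interferon response genes were higher in the Sst kind, with 6 of 7 higher and 0 lower (median 2.40), or 6 and 0 relative to the median gene (2.69). The direction was shared with single-insulin (4 of 5 higher, 2.61), single-somatostatin (6 of 6, 2.43) and single-glucagon cells (4 of 4, 2.10). Irf7, a factor of that response, held 28.2 and 2.69 CPM (10.5, 3.42 to 52.3) and Ifit1 50.02 and 10.7 CPM (4.66). Of this list 5 genes were measured in the Gcg kind, of which Ifit1 and Bst2 were higher, with a median of 0.08, or 0.29 relative to the median gene. Antigen presentation and macrophage genes were also higher in the Sst kind, with H2-Aa at 113 and 0.895 CPM (126, 22.5 to 5014) and H2-Ab1 at 142 and 1.79 CPM (79.5), while Cd74, Ctss and C1qb were at 0 in Cre-negative cells and at least 22.1-fold, 19.4-fold and 16.3-fold higher. These UMIs came from few cells: H2-Aa was found in 19 of 166 Cre-positive cells with 78 of its 233 UMIs in 1 cell, and C1qb in 10 cells. The 7 Cre-positive cells with 3 or more endothelial or macrophage markers held 1934 CPM of the macrophage list, against 19.7 CPM in the other 159 cells. Cells with 3 or more macrophage markers were 731 of 9587 kept Cre-positive and 60 of 5928 kept Cre-negative cells. The macrophage list was also higher in Cre-positive single-insulin (49.7 and 18.4 CPM) and single-somatostatin cells (72.1 and 13.8 CPM). Nupr1, a stress-induced nuclear protein, held 56.8 CPM and 0 and was at least 21.2-fold higher.

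Progenitor and dedifferentiation genes were lower in Cre-positive members. Of the list, 5 of 5 measured were lower in the Gcg kind (median −1.25) and 5 of 6 in the Sst kind (−1.03), or 4 and 5 relative to the median gene, where 1 gene of the Sst kind was higher. Dlk1, an imprinted Notch-related gene, held 33.2 CPM in Cre-positive and 424 CPM in Cre-negative cells of the Gcg kind, 12.8-fold lower (9.46 to 17.1), with 28 of the 67 Cre-negative UMIs in 1 cell, and 89.8 and 432 CPM in the Sst kind, 4.81-fold lower. Neurog3 held 21.9 and 43.9 CPM in the Sst kind (0.498, 0.325 to 0.762). Single-insulin cells had 3 lower genes of the list and none higher, with a median of −1.53.

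Among the genes most reduced in the Gcg kind were the protease Prss23 at 12.3 and 126 CPM (10.3-fold lower), Nsg2 at 6.03 and 56.9 CPM (9.43-fold), Myc at 14.1 and 126 CPM (8.98-fold), Ddit4 at 49.3 and 335 CPM (6.80-fold) and Kctd12b at 39.6 and 266 CPM (6.70-fold). Txnip, a glucose-induced inhibitor of thioredoxin, held 420 and 2087 CPM there and was 4.97-fold lower (4.41 to 5.58). Prss23 in the Sst kind held 18.5 and 206 CPM (11.2-fold lower), the enkephalin precursor Penk 2.43 and 69.8 CPM (28.8-fold), and the thyroxine carrier Serpina7 11.2 and 124 CPM (11.1-fold). Itih5 (62.7-fold), Matn2 (27.6-fold) and Zfp423 (25.8-fold) were lower too, each with 1 or 2 Cre-positive UMIs, and Moxd1 was at least 20.3-fold lower. Prss23 and Zfp423 were also lower in Cre-positive single-insulin and single-somatostatin cells. Of the 78 Cre-negative UMIs of Penk 39 came from 1 cell.

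Mature beta genes did not all move one way. Among 12 genes 5 were higher in the Gcg kind (Mafa, Ucn3, Gad1, Pdx1 and Trpm5) and Slc2a2 was lower, with a median of 0.57, or 0.77 relative to the median gene, against 0.06 in single-insulin cells. Ucn3 held 405 and 56.9 CPM (7.12, 3.74 to 15.6) and Mafa 335 and 183 CPM (1.83, 1.27 to 2.74), while Slc2a2 held 198 and 341 CPM (0.580, 0.440 to 0.777). The Sst kind had 3 higher and 1 lower (median 0.06), or 4 and 1 relative to the median gene (0.35). The lists that follow stand beside a share of 28.7% of all genes lower in the Gcg kind and 28.1% in the Sst kind. Of the alpha list in the Gcg kind 4 of 10 were lower and 1 higher (median −0.55), or 3 and 1 relative to the median gene (−0.35). Single-glucagon cells had 6 of 11 alpha genes lower (−0.69). The receptor list had 4 of 6 lower in the Gcg kind and 3 of 5 in the Sst kind, or 3 in each relative to the median gene, Glp1r at 214 and 424 CPM (0.505) and at 221 and 507 CPM (0.437). Of the methylation list 4 of 7 were lower in each kind, or 2 in the Gcg kind and 3 lower with 1 higher in the Sst kind relative to the median gene, Tet1 at 10.5 and 50.6 CPM in the Gcg kind (0.207) and 11.7 and 27.7 CPM in the Sst kind (0.420). Single-insulin cells had 3 of 5 receptor genes (median −0.64) and 3 of 6 methylation genes (−0.76) lower. Single-glucagon cells had 0 of 4 receptor genes (−0.24) and 4 of 7 methylation genes (−0.70) lower. Of the processing list 2 of 10 were lower in the Gcg kind, or 1 relative to the median gene, and 2 were lower and 1 higher in the Sst kind, or 1 and 1.

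The shallow members of the Cre-negative Sst kind differed from the deep ones. In the 56 cells at or below the single-insulin median depth the delta position was 0.137, Hhex 32.1 CPM and Mafa 25 CPM. In the 73 deeper cells the delta position was 0.384, Hhex 165 CPM and Mafa 145 CPM. The beta positions were 0.693 and 0.564. Txnip lay above both single-hormone classes in the whole kind, at 1931 CPM against 1174 CPM in single-insulin and 1179 CPM in single-somatostatin cells, as did Penk at 69.8 against 19.2 and 11.2 CPM.

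The second pair asks how the members differ after intrauterine hyperglycemia. Of 7789 genes in the Gcg kind 440 were higher (5.65%) and 295 lower (3.79%) in IHG offspring. Without members that held endothelial or macrophage markers 342 of 7658 genes were higher (4.47%) and 371 lower (4.84%). Of 7725 genes in the Sst kind 302 were higher (3.91%) and 278 lower (3.6%). With all UMIs as the denominator, 175 of 5741 genes were higher and 309 lower in the Gcg kind, and 79 and 384 of 6031 in the Sst kind. By the same 1.5-fold rule single-insulin cells had 64 higher (0.862%) and 43 lower (0.579%) of 7424 genes. Single-glucagon cells had 313 (4.11%) and 403 (5.29%) of 7618, and single-somatostatin cells 539 (6.78%) and 418 (5.26%) of 7945. The single-insulin counts rest on 6280 IHG offspring and 11222 control offspring cells, many more than the members. The part of cell number in these counts was not tested.

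Immediate early and heat shock genes were lower in IHG offspring members. The Gcg kind had 13 of 16 lower and 1 higher, with a median log2 ratio of −1.06, and 13 were lower and 0 higher without the marked cells, again at −1.06. The Sst kind had 14 of 16 lower and 0 higher, with a median of −1.02. Single-glucagon cells had 15 lower (−1.48), single-somatostatin cells 14 (−1.22) and single-insulin cells 4 (−0.33), so in this group the members lay between the hormone cells of each kind. The list summed to 21625 CPM in IHG offspring and 44863 CPM in control offspring cells of the Gcg kind, and to 25179.5 and 52735 CPM in the Sst kind.

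Npas4, an activity-induced factor, held 169 CPM in IHG offspring and 438 CPM in control offspring cells of the Gcg kind, 2.60-fold lower (2.30 to 2.95), and 81.6 and 341 CPM in the Sst kind, 4.18-fold lower (3.48 to 5.06). Fosb held 837 and 2232 CPM in the Gcg kind (2.67-fold lower) and 918 and 2469 CPM in the Sst kind (2.69-fold). Its ratio was 0.613 in single-insulin, 0.296 in single-glucagon and 0.318 in single-somatostatin cells. Bag3 held 216 and 554 CPM in the Gcg kind (2.56-fold) and 286 and 750 CPM in the Sst kind (2.62-fold). Bag3 was found in 52.7% of IHG offspring and 78.2% of control offspring cells of the Gcg kind. Without marked cells the Gcg kind was 2.53-fold lower in Npas4, 2.79-fold in Fosb and 3.10-fold in Bag3. Bag3 was thus higher in Cre-positive than Cre-negative members and lower in IHG offspring than control offspring members of both kinds.

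**Figure D5:**
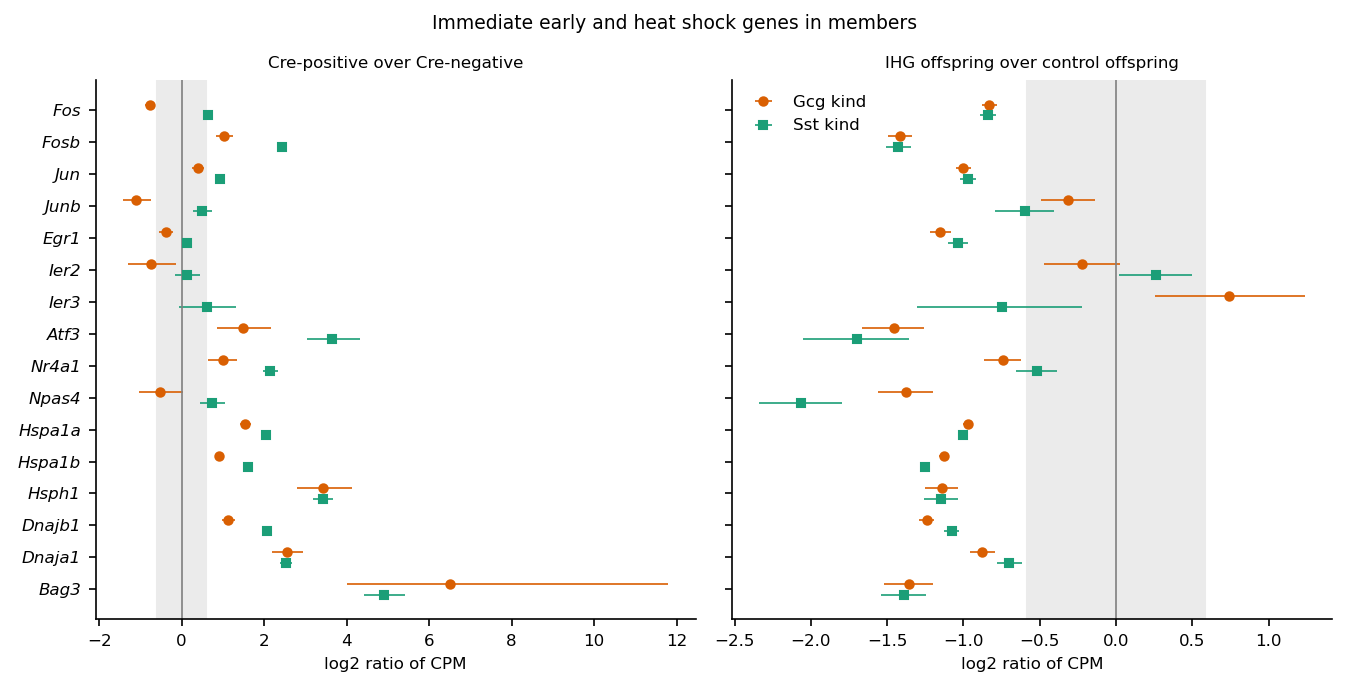
Log2 ratio of CPM, with 95% intervals of counting error, for 16 immediate early and heat shock genes in the Gcg and Sst kinds, for Cre-positive over Cre-negative and IHG offspring over control offspring; the grey band covers ratios within 1.5-fold. Of 16 genes in the Sst kind 13 lie above the band in the first contrast and 14 below it in the second.

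The same list held Atf3 at 130 and 358 CPM (2.75-fold lower) and Dnajb1 at 2105 and 4980 CPM (2.37-fold) in the Gcg kind, and Atf3 at 52.1 and 169 CPM (3.24-fold) and Hspa1b at 5937 and 14151 CPM (2.38-fold) in the Sst kind. Outside the list, the genes whose intervals lay farthest below 1 included, in the Gcg kind, Egr4 at 2.01 and 36.5 CPM (18.1-fold lower, 6.85 to 68.0), Ccn1 at 40.3 and 184 CPM (4.57-fold) and Gem at 16.1 and 73.1 CPM (4.54-fold). Without marked cells these were 11.5-fold, 15.3-fold and 4.00-fold lower. In the Sst kind they included Ccn1 at 156 and 412 CPM (2.64-fold), the insulin receptor substrate Irs2 at 95.8 and 247 CPM (2.57-fold) and Klf6 at 402 and 992 CPM (2.47-fold). Hspa1a and Hspa1b are near-identical and their split is uncertain.

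The genes that were most raised in IHG offspring members belong to vessels and immune cells. In the Gcg kind C1qb held 59.4 and 0.401 CPM (148, 26.0 to 5891), C1qc was 99.0-fold, H2-Eb1 86.1-fold, Fabp4 63.3-fold, H2-Ab1 57.8-fold, Mgp 47.8-fold, Apoe 30.6-fold and H2-Aa 29.3-fold higher. All 8 of 8 measured endothelial genes (median 3.43) and 5 of 5 macrophage genes (4.79) were higher, and without the marked cells 2 endothelial genes were still measured and higher (2.56), with Mgp 21.6-fold higher. The Sst kind was led by the same sort of gene at lower ratios: H2-Ab1 36.8-fold, H2-Aa 19.9-fold, Apoe 14.2-fold, Ifitm3 5.44-fold, Mgp 4.89-fold, Sparc 4.78-fold and Plvap 3.85-fold. The 22 marked cells of that kind held 4783 CPM of the endothelial list and the other 189 cells 26.9 CPM. Without marked cells no endothelial gene was still measured there, and Mgp (45.5-fold), Sparc (13.7-fold) and Apoe (13.3-fold) were higher on 39, 82 and 40 IHG offspring UMIs. Stmn1, a microtubule protein, held 27.0 and 4.66 CPM (5.79), with 16 of its 42 IHG offspring UMIs in 1 cell.

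Lineage genes differed less. Of the alpha list in the Gcg kind 1 of 10 was higher and 0 lower, with a median of 0.03, and Irx1 held 91.1 and 108 CPM (0.840, 0.692 to 1.02). Without marked cells 2 of 9 were higher, with a median of 0.29, and Irx1 held 112 and 109 CPM (1.03, 0.837 to 1.27). Of 4 delta genes measured in the Gcg kind 1 was lower (Hhex), and 3 were lower without marked cells (median −0.85). Of the delta list in the Sst kind 0 of 7 passed 1.5-fold in either direction (median 0.14), and Hhex held 233 and 240 CPM (0.971, 0.856 to 1.10). Of the beta list 1 of 12 was higher in each kind, the glutamate decarboxylase Gad1 at 309 and 182 CPM in the Gcg kind (1.70, 1.502 to 1.92) and 289 and 140 CPM in the Sst kind (2.06). Mafa held 741 and 1023 CPM in the Gcg kind (0.725, 0.679 to 0.773), short of the 1.5-fold rule. Without marked cells the ratio in the Gcg kind was 1.79 for Gad1 and 0.754 for Mafa.

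Pcsk1n, an inhibitor of the convertase Pcsk1, was the member of the processing list that was higher, at 1774 and 971 CPM in the Gcg kind (1.83, 1.73 to 1.92) and 1199 and 592 CPM in the Sst kind (2.02). It was 1.83 in single-insulin, 2.04 in single-glucagon and 2.17 in single-somatostatin cells. Ppy held 4045 and 1776 CPM in the Gcg kind (2.28), and 1.24 was the ratio without the marked cells. Of the unfolded protein response list 2 of 12 in the Gcg kind and 1 of 11 in the Sst kind were lower, Hspa5 at 2098 and 3577 CPM (0.587, or 0.590 without marked cells) and 2080 and 3468 CPM (0.600). Dlk1 was higher in the Sst kind, at 68.8 and 39.9 CPM (1.72), and Sox9 lower, at 19.9 and 44.3 CPM (0.450). Tet2 held 38.2 and 54.2 CPM in the Gcg kind (0.706, 0.526 to 0.942, or 0.764, 0.546 to 1.06, without marked cells) and 37.3 and 65.0 CPM in the Sst kind (0.574, 0.422 to 0.769).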

How the data were processed

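Transcripts of islet cells were counted in 4 single-cell libraries, 1 per group. The deposited matrices hold raw counts, that is, UMIs per gene (32285 genes) and barcode. The submitters' processing notes list Cell Ranger, Seurat and mm10 without saying what each did. For the aligner, annotation, barcode filter and use of strand: not given in the sources used here, so overlapping genes and near-identical copies (Hspa1a and Hspa1b, the H2 family) may share or split reads. The lowest barcode held 500 UMIs.

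Kept were cells with at least 500 genes and mitochondrial UMIs of 20% or less. No cell was removed as a doublet; Scrublet scores (scanpy 1.11.5, expected rate 0.06) were computed per library and the top 6% marked. For each class of a library UMIs were added up, and CPM denominators left out Ins1, Ins2, Gcg, Sst and the mitochondrial genes. Single-hormone classes had their hormone at or above the member limit and the other 2 under 1%. Ratios have exact conditional binomial intervals and shares exact Clopper-Pearson intervals at 95%, both for counting error only; PCR and wells add error they do not cover. A count of 0 was set to 3 UMIs over the class of a library, which gives a bound. A gene was measured with 20 CPM in 1 of the libraries compared and 30 UMIs in both together, and called at 1.5-fold. Positions needed ends 2-fold apart, and under an alternative a position within 0.1 of the first value counted as unmoved. Cells were thinned to 2000 UMIs (or 1000) with a fixed seed.

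Named in the text are the list genes and, per contrast and kind, the 8 higher and 8 lower genes whose interval lay farthest from 1; genes outside both classes were chosen after their values were seen. Some of these genes are not reported here. The members and all lists were chosen with earlier results of these data known. Leaving out members with 3 or more endothelial or macrophage markers, and members deeper than the single-insulin median, were alternatives chosen after seeing the data. The ratio computation was tested on simulated data. Versions were scipy 1.17.1, numpy 2.4.6, pandas 2.3.3, anndata 0.12.19, scikit-learn 1.9.0 and matplotlib 3.10.9 under Python 3.11.15.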

Additional observations from a re-analysis of the deposited data

Results flagged for a closer look

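The Gcg and Sst kinds had opposite directions in the second pair. The share of kept cells in IHG offspring over control offspring was 1.17 (1.00 to 1.37) for the Gcg kind, with 317 IHG offspring and 357 control offspring cells, and 0.518 (0.440 to 0.609) for the Sst kind, with 211 and 537 cells. Each direction rests on 1 library per group, and the difference between the kinds was not tested. The Gcg ratio was below 1 under several alternatives, without the members that held endothelial or macrophage markers among them (0.681), and the direction of the Sst kind turned at a hormone limit of 10% (1.25).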

How the results depend on the processing

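Of 375 alternative values, 210 stayed within the limits set for agreement, 155 moved beyond them and 10 turned direction. No paired analysis was possible because each group had 1 library; for the same reason no replicate was left out. The cause of the changes was not tested, except that stricter limits leave fewer cells.

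The share ratio of the Gcg kind in the first pair was 81.3 at a hormone limit of 10% and 30.7 without the top 6% of Scrublet scores, and that of the Sst kind 0.388 at 10% and 1.03 at an insulin limit of 20%. In the second pair the Gcg ratio turned to 0.884 at a hormone limit of 5%, 0.707 at 10%, 0.595 at a mitochondrial limit of 10%, 0.662 below the automatic Scrublet threshold and 0.681 without members with endothelial or macrophage markers. The Sst ratio turned to 1.25 at a hormone limit of 10% and was 0.652 at an insulin limit of 20%, 0.422 at the mitochondrial limit of 10%, 0.262 without the top 6% and 0.296 below the automatic threshold.

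Depth over single-insulin cells at a hormone limit of 10% was 2.00 (Cre-positive, Gcg kind), 1.53 (IHG offspring, Gcg kind) and 1.36 (control offspring, Sst kind), and 1.43 in the IHG offspring Gcg kind without marked cells. Genes per cell over single-insulin cells turned with thinning: 0.987 and 0.983 in the Cre-positive Gcg and Sst kinds, against 1.41 and 1.34 unthinned, and 0.984 and 0.997 in the control offspring kinds, against 1.46 and 1.38. The share in the top 6% of scores at a hormone limit of 10% was 22.2% (Cre-positive, Sst kind), 100% (Cre-negative, Gcg kind), 80% (IHG offspring, Gcg kind), 42.1% and 8% (control offspring, Gcg and Sst kinds), and 76.4% in the IHG offspring Gcg kind without marked cells.

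Positions of the alpha list were 0.215 (Cre-positive, insulin limit of 20%), 0.572 (Cre-negative, without the top 6%), 0.243 (Cre-negative, at or below the single-insulin median depth), and 0.429 and 0.474 (IHG offspring and control offspring, hormone limit of 10%). Those of the delta list were 0.616, 0.137 and 0.544 in Cre-positive, Cre-negative and control offspring members at or below that depth, and 0.624 in control offspring members at the 10% limit.

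Alpha with beta factors were found in 94.0%, 100%, 74.8% and 87.4% of unthinned Gcg kind cells (Cre-positive, Cre-negative, IHG offspring, control offspring), in 25.8%, 32.2% and 32.6% of Cre-positive, IHG offspring and control offspring cells thinned to 1000 UMIs, and in 51.7% of Cre-positive cells at a hormone limit of 10%. Hhex with beta factors was found in 78.3%, 42.6%, 61.1% and 64.8% of unthinned Sst kind cells, in 13.4%, 6.25%, 11.7% and 13.7% at 1000 UMIs, and in 22.0% (IHG offspring) and 43.2% (control offspring) at the 10% limit.

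Observed pairs over the product of shares at a hormone limit of 10% were 0.307, 0.00909, 0.108 and 0.237 for insulin with glucagon and 0.108, 0.131, 0.117 and 0.184 for insulin with somatostatin. At an insulin limit of 20% they were 0.0949, 0, 0.0862 and 0.111, and 0.0599, 0.0361, 0.114 and 0.184. In every library these lay below insulin with endothelial and with macrophage markers as taken at the insulin limit of 5%. The marker pairs were not taken at 20%, so the order at that limit was not tested.

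Counts of genes moved with the rule and the scaling. In the first pair the Gcg kind had 742 higher genes with all UMIs as the denominator, 580 at 50 CPM and 688 at 2-fold, and 1367 lower at 50 CPM, 989 at 2-fold and 3673 without the top 6%. The Sst kind had 1234 higher and 1044 lower by median of ratios, 343 and 1229 at 50 CPM, 322 and 687 at 2-fold, and 265 and 316 at an insulin limit of 20%. In the second pair the Gcg kind had 175 higher with all UMIs, 143 and 112 lower at 50 CPM, 175 and 40 at 2-fold, 804 and 753 without the top 6% and 560 lower at an insulin limit of 20%. The Sst kind had 79 higher with all UMIs, 80 and 101 lower at 50 CPM, 55 and 49 at 2-fold, 715 and 764 without the top 6%, and 614 and 461 at the insulin limit of 20%. That limit left no Cre-negative Gcg kind cell, so it gave no count there.

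The Cre-negative Gcg kind had 15 cells, so only large ratios can be told from 1 there.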

Other observations

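Cells past the limits of both second hormones held more pancreatic polypeptide message than single-insulin cells. Ppy made up 0.541% of their summed UMIs in the Cre-positive, 0.395% in the IHG offspring and 0.201% in the control offspring library, against 0.202%, 0.0456% and 0.0301% in single-insulin cells, and was found in 115 of 115, 39 of 39 and 142 of 154 cells. Single-somatostatin cells held more, at 1.87%, 0.574% and 1.02%. Single-glucagon cells held 0.784%, 0.377% and 0.327%, and the Sst kind 1.54%, 0.280% and 0.354%. Each of these held more than the cells past both limits in the Cre-positive and control offspring libraries, and less in the IHG offspring library. The Gcg kind held less in each of these libraries, at 0.421%, 0.236% and 0.112%.

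Mitochondrial transcripts were a smaller part of the median member than of the median single-insulin cell, with 2 exceptions. The median was 6.21% (Cre-positive), 7.27% (Cre-negative), 9.94% (IHG offspring) and 7.13% (control offspring) in the Gcg kind and 6.10%, 6.62%, 6.88% and 7.11% in the Sst kind, against 7.76%, 7.88%, 8.32% and 8.98% in single-insulin cells and 4.58%, 6.98%, 4.70% and 5.16% in single-glucagon cells. Cells past both limits stood at 5.73% (Cre-positive), 12.3% (IHG offspring) and 6.24% (control offspring). The IHG offspring Gcg kind, in which 139 of 317 cells held endothelial or macrophage markers, and the IHG offspring cells past both limits, in which 25 of 39 did, were above their single-insulin cells.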
